A study of Mus musculus with 74 samples.

Results

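The T cell receptor complex and its proximal signalling genes were followed in mouse CD4+ T cells from the naive state through the first 5 days of T helper differentiation, as members of a list of 9 genes: Cd3d, Cd3e, Cd3g, Cd247, Lck, Zap70, Lat, Themis and Tespa1. A gene was taken by its symbol in the annotation of the array, and the probe with the highest mean log2 intensity over all 74 arrays stood for it. Lck was not matched to a probe by symbol and was not analysed here. The other 8 genes have 16 probes, all of these passed the filter on dim probes, and they are 8 of the 13817 expressed genes of the series.

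The series has 37 conditions, and a condition has 1 array from each of 2 experiments. All cells came from the spleen and lymph nodes of Balb/c mice aged 5 to 8 weeks, and the naive CD4+ CD62L-high cells were taken at 0 h. All 4 cultures were activated with antibodies against CD3 and CD28 and were harvested at 3, 6, 12, 24, 35, 48, 73, 96 and 120 h. ThMix cells (the Th1/2 hybrid condition) received IL12 and IL4, Th2 cells received IL4 with antibodies against IL12 and IFNg, Th1 cells received IL12 with an antibody against IL4, and Th0 cells received antibodies against IFNg, IL4 and IL12. The activating antibody binds CD3 itself, so every culture received a stimulus through the complex described here. The naive cells are 1 group of 2 arrays that all 4 cultures share as their baseline, cells were pooled from several tissues, and the cultures were moved to new plates on the second day.

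The T cell receptor binds its ligand through variable chains that carry no signalling motif of their own. The signal is passed on by the CD3 chains encoded by Cd3d, Cd3e and Cd3g and by the zeta chain encoded by Cd247, whose cytoplasmic tails hold the tyrosine motifs called ITAMs. The kinase Lck phosphorylates these motifs, the kinase ZAP-70 binds them and phosphorylates the membrane adaptor LAT, and LAT assembles the enzymes that open calcium and Ras signalling. THEMIS and TESPA1 are adaptors of this proximal machinery that are known for their part in thymocyte development.

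Cd3g, Cd3d and Cd3e lie next to each other on chromosome 9, and all 3 fell and partly returned, Cd3e and Cd3g most alike, as described below. The 250 bases before the start of each gene are shown for this reason, 5′ to 3′ on the strand of the gene, from RefSeq in the build GRCm38.p6. Capitals mark the E-box letters CACCTG and the ETS core letters AGGAAG on either strand.
Cd3g, chr9:44980432-44980681, minus strand: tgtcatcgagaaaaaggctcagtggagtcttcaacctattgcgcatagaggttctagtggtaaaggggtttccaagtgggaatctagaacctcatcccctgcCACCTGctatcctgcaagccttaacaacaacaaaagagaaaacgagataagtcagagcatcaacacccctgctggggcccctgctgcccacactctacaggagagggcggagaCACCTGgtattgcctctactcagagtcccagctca
Cd3d, chr9:44981536-44981785, plus strand: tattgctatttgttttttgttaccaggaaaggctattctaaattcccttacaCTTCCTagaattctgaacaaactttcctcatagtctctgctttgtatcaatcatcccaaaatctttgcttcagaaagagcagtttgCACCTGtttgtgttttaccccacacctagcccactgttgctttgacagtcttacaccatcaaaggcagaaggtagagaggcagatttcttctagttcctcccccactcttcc
Cd3e, chr9:45009612-45009861, minus strand: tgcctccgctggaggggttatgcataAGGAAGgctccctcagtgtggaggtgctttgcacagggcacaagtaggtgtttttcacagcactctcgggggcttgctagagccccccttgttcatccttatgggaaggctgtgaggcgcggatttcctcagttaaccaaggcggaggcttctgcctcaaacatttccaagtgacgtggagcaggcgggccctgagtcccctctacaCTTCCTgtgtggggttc
Cd3g and Cd3d are transcribed away from each other, with 1355 bases between their starts. CACCTG was found 2 times in the stretch of Cd3g and 1 time in that of Cd3d, and these letters were not found in that of Cd3e. AGGAAG was found 2 times in the stretch of Cd3e and 1 time in that of Cd3d, and these letters were not found in that of Cd3g. No match of one motif overlaps a match of the other. Of 32851 such stretches of all mouse genes, 17.2% hold CACCTG and 29.5% hold AGGAAG on either strand. Neither TGTGGT, held by 14% of all stretches, nor TATAAA, held by 12.4%, was found in the 3 stretches. Promoters were matched for 7 of the 8 genes, all but Tespa1.

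All values below are log2 of the deposited intensities. A level of a probe is relative to the other probes of its array because the arrays were normalized to a common distribution, and in bulk RNA fewer cells with a transcript and less transcript per cell cannot be told apart. The array medians lay between 107 and 111 on the linear scale, the residual SD between experiments had a median of 0.15 over all genes, and the median change of all genes in the windows described below lay between -0.02 and 0.04. Among markers of the sorted cells, Cd4 lay between 8.05 and 9.91 in the cultures and at 9.87 and 9.25 in naive cells. Cd8a did not pass the filter in any condition, while the probe of Cd8b1 lay between 11.17 and 12.88 in the cultures and at 12.39 and 11.65 in naive cells. The myeloid gene Lyz2 had a median of 6.38 in the cultures and was at 9.49 and 10.01 in naive cells. All 4 listed myeloid markers, of which 3 passed the filter, were summed. Their summed level was 8.41 to 10.13 in the cultures and 10.19 to 10.79 in naive cells. That of both detected B cell markers of 4 listed was 7.92 to 10.45 in the cultures and 9.55 to 10.13 in naive cells. The part of these cells in the differences from naive cells was not tested. A pair of arrays stood apart, ThMix at 12 h of experiment 1 and Th0 at 96 h of experiment 2, and the values of Cd247 and the counts of genes are given with and without them.

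Most genes of the complex were lower in the cultures than in naive cells. In the mean of 3 to 12 h over the 4 cultures, 7 of the 8 genes were lower than in naive cells and 1 was higher, against 22.6% of all genes called lower and 20.8% called higher. At 24 to 35 h, 6 of the 8 were lower and none was higher, against 24.8% and 27% of all genes. At 73 to 120 h, 5 were lower and 1 was higher, against 23.4% and 21.8%. Between 24 to 35 h and 73 to 120 h, 4 genes rose and 1 fell, against 28.8% and 32.5% of all genes. Without the 2 arrays that stood apart, 8 genes were called at 3 to 12 h, 7 at 24 to 35 h, 7 at 73 to 120 h and 6 between 24 to 35 h and 73 to 120 h, in either direction. With all arrays, these counts were 8, 6, 6 and 5 of 8, against 43.4%, 51.8%, 45.2% and 61.2% of all genes in either direction. Shares of all genes for the fit without the 2 arrays are not given here. The median change of the 8 genes against naive cells was -0.74 at 3 to 12 h, -1.01 at 24 to 35 h and -0.73 at 73 to 120 h.

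**Figure D1:**
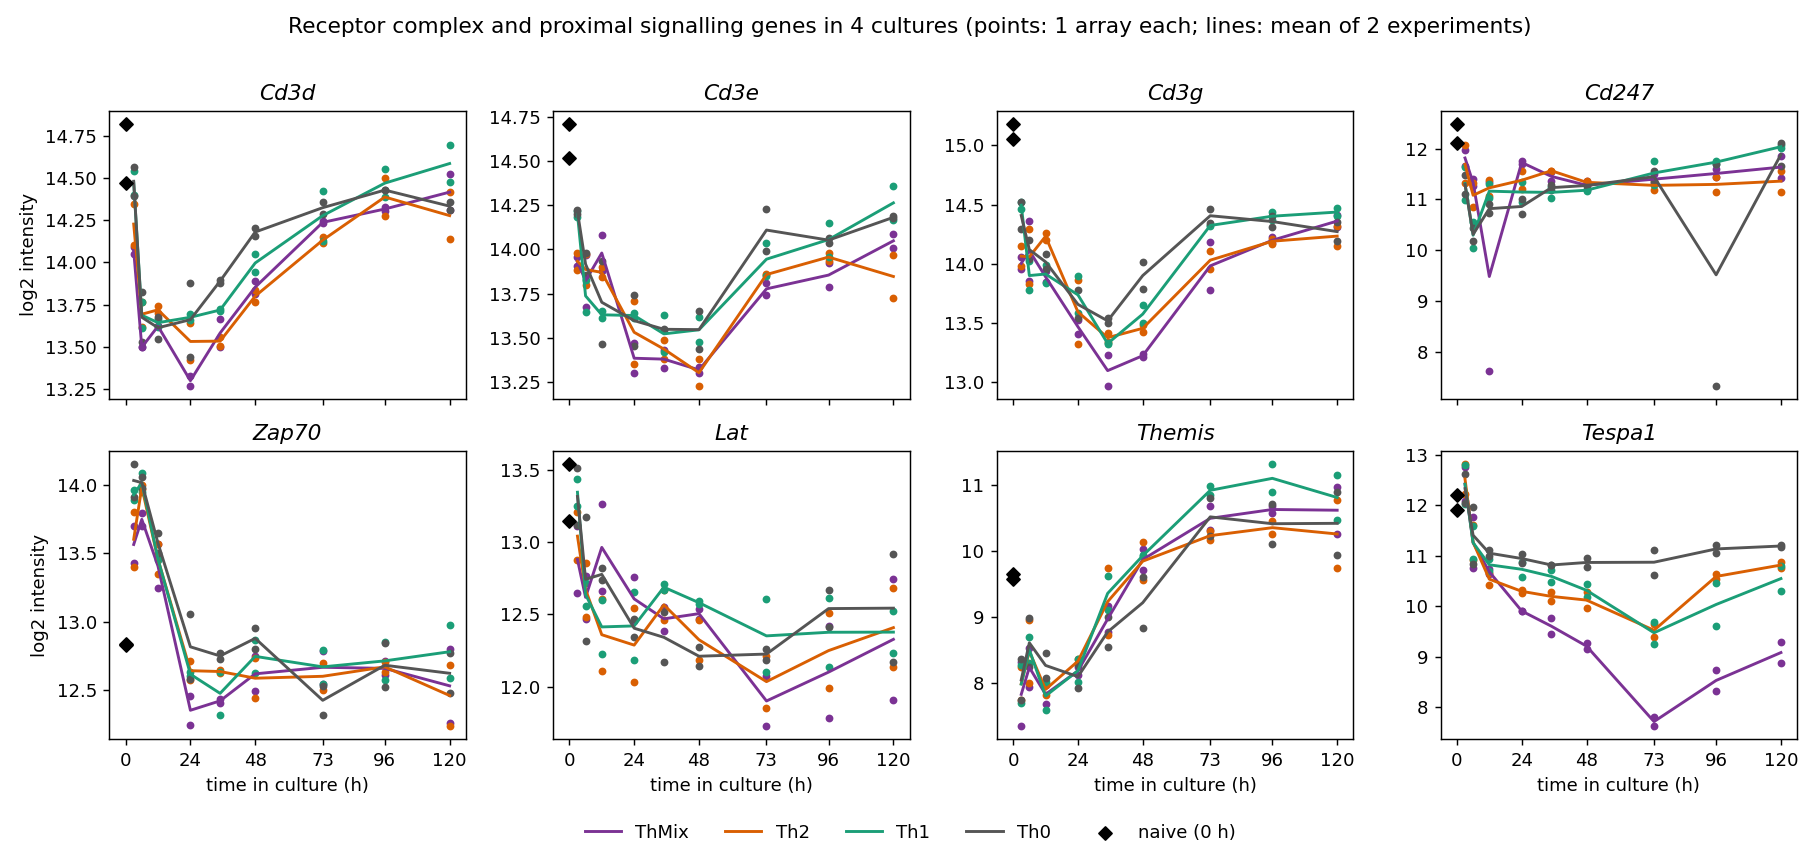
Log2 intensity (vertical axes, scaled separately for each gene) against hours in culture for the 8 genes, with 1 point per array, a line through the means of 2 experiments for ThMix, Th2, Th1 and Th0, and black diamonds for the 2 naive arrays. The CD3 genes dip and climb back, Zap70 is high from 3 to 12 h, Themis passes the naive level by 73 h, Tespa1 parts by culture with ThMix lowest, and Cd247 shows 1 low point in each of ThMix at 12 h and Th0 at 96 h.

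The genes of the CD3 delta, epsilon and gamma chains fell after activation and partly returned. Cd3g, which encodes the gamma chain, was at 12.97 and 13.23 in ThMix, 13.34 and 13.42 in Th2, 13.33 and 13.33 in Th1 and 13.54 and 13.50 in Th0 cells at 35 h, against 15.18 and 15.05 in naive cells. The 8 cultured arrays were thus all below both naive arrays, and the lowest values were those of ThMix cells. Its pooled change at 24 to 35 h was -1.64 ± 0.11 (SE), which is 3.13-fold lower (limma, adjusted p = 1.2e-16). By 73 to 120 h the level had risen by 0.79 ± 0.05 from that of 24 to 35 h (adjusted p = 7.1e-19), and its difference from naive cells was then -0.85 ± 0.11.

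Cd3d, the delta chain gene, was at 13.33 and 13.27 in ThMix, 13.42 and 13.64 in Th2, 13.69 and 13.66 in Th1 and 13.44 and 13.88 in Th0 cells at 24 h, against 14.82 and 14.47 in naive cells. No cultured array of that time reached a naive array. At 120 h the values were 14.31 and 14.53 in ThMix, 14.14 and 14.41 in Th2, 14.47 and 14.70 in Th1 and 14.36 and 14.31 in Th0 cells, and both Th1 arrays and 1 ThMix array lay within the naive range. The pooled change was -1.03 ± 0.09 at 24 to 35 h and -0.30 ± 0.09 at 73 to 120 h (adjusted p = 0.0052), and the later one was -0.12 ± 0.12 with adjusted p = 0.50 without naive replicate 1, the higher of the 2 naive arrays.

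Cd3e, the epsilon chain gene, was lowest at 48 h in the Th2 and ThMix cultures, with 13.30 and 13.33 in ThMix, 13.23 and 13.38 in Th2, 13.47 and 13.62 in Th1 and 13.44 and 13.65 in Th0 cells, against 14.71 and 14.52 in naive cells. ThMix and Th2 arrays were below those of both other cultures at that time. Its pooled change was -1.11 ± 0.09 at 24 to 35 h and -0.62 ± 0.09 at 73 to 120 h (adjusted p = 2.9e-07). A second probe of Cd3e changed by -1.37 and -0.69 in the same windows, with a correlation of 0.97 to the first over the 37 condition means. Over these means, Cd3e and Cd3g correlated with r = 0.94, Cd3d and Cd3e with r = 0.74, and Cd3d and Cd3g with r = 0.74. The points share experiments and a common activation course, so these are descriptions.

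Cd247, the zeta chain gene, was the member whose values depended on the 2 arrays that stood apart. Its brightest probe read 7.62 in the ThMix array of experiment 1 at 12 h, against 11.35 in experiment 2, and 7.33 in the Th0 array of experiment 2 at 96 h, against 11.70 in experiment 1. Apart from these arrays, no culture value was below 10.04, and the naive arrays were at 12.49 and 12.10. The pooled change was -1.31 ± 0.49 at 3 to 12 h (adjusted p = 0.028), -0.98 ± 0.50 at 24 to 35 h (adjusted p = 0.10) and -0.91 ± 0.49 at 73 to 120 h (adjusted p = 0.14). Without the 2 arrays it was -1.16 ± 0.16, -0.98 ± 0.17 and -0.73 ± 0.16, with adjusted p = 1.3e-07, 2.7e-06 and 0.00026, and Cd247 then passed in all 3 windows, and its rise of 0.25 ± 0.07 between 24 to 35 h and 73 to 120 h passed as well (adjusted p = 0.0023).

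The other two probes of Cd247 followed another course. They changed by -0.30 and -0.07 at 3 to 12 h, by -1.11 and -0.73 at 24 to 35 h and by -0.30 and -0.11 at 73 to 120 h. Their correlation with each other over the condition means was 0.97, and their correlation with the brightest probe was 0.22 and 0.12, or 0.49 and 0.49 without the 2 arrays. The change at 3 to 12 h did not pass with the second brightest probe (adjusted p = 0.20), nor with the brightest one without replicate 2 of Th1 or Th2 or without either naive replicate (adjusted p of 0.071 to 0.24), whereas all 3 probes were below naive cells at 24 to 35 h.

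Within the first day the levels of Cd247 lay apart by culture at 6 h, where no difference passed with all arrays. The brightest probe was at 11.40 and 11.26 in ThMix and 11.31 and 10.85 in Th2 cells, and at 10.55 and 10.04 in Th1 and 10.44 and 10.19 in Th0 cells. The cultures that had received IL4 lay above both others in every array. The same was so for the other two probes, of which the second was at 9.59 and 9.83 in ThMix, 9.37 and 9.82 in Th2, 8.94 and 9.17 in Th1 and 8.93 and 9.12 in Th0 cells. With all arrays ThMix minus Th0 was 1.02 ± 0.67 with the brightest probe (adjusted p = 1.00) and 0.69 ± 0.25 with the second (adjusted p = 0.40). Without the 2 arrays the difference of the brightest probe was 1.02 ± 0.22 with adjusted p = 0.0086, where 0.883% of all genes were called in either direction, and ThMix minus Th1 was 1.03 ± 0.22 with adjusted p = 0.011. Th2 minus Th0 was 0.77 ± 0.22 and did not pass (adjusted p = 0.19).

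**Figure D2:**
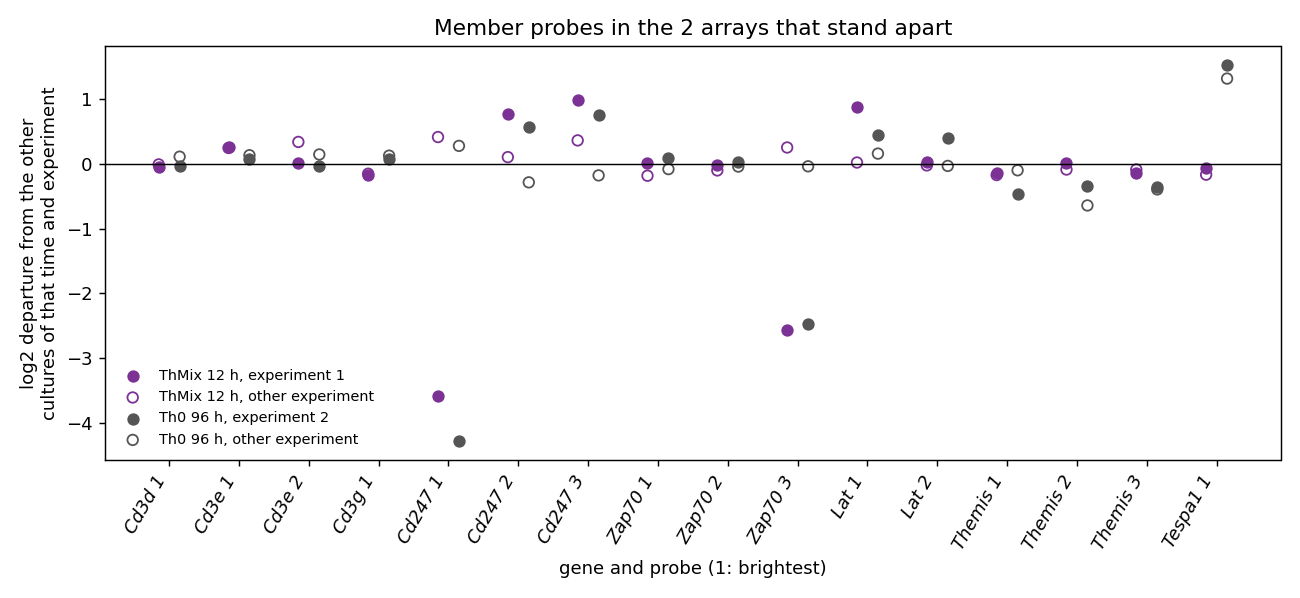
Log2 departure (vertical axis) of each of the 16 probes of the 8 genes (horizontal axis, probe 1 the brightest) from the other cultures of the same time and experiment, in ThMix at 12 h of experiment 1 and Th0 at 96 h of experiment 2 (filled) and in the other experiment of each condition (open). The first probe of Cd247 (-3.59 and -4.27) and the third of Zap70 (-2.56 and -2.47) are far below 0 in both filled arrays, and no other probe is at least 2-fold lower in both.

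Low values in these arrays were found well beyond the complex. Among all 23115 expressed probes, 795 were at least 2-fold below the other cultures in the ThMix array, 1082 in the Th0 array and 569 in both. These 569 probes belong to 480 genes, of which 413 have several expressed probes, and 392 of the 413 have another probe that was low in neither array. For Cd247 the other two probes were above the other cultures there, by 0.56 to 0.98, and for Zap70 the 2 brighter probes departed by -0.02 to 0.09. Tespa1 was 1.52 above the other cultures in the Th0 array, and 1.31 above them in the other experiment, so this gap was present in both.

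Zap70, which encodes the kinase that binds phosphorylated ITAMs, was the one member that rose early. At 6 h it was at 13.80 and 13.70 in ThMix, 13.999 and 13.97 in Th2, 14.09 and 13.95 in Th1 and 14.06 and 13.98 in Th0 cells, against 12.83 and 12.84 in naive cells. All 8 arrays were above both naive arrays. The pooled change at 3 to 12 h was 0.90 ± 0.13, which is 1.87-fold higher (adjusted p = 8.6e-08). At 24 h the values were 12.24 and 12.46 in ThMix and 12.57 to 13.05 in the other cultures, and the pooled change of 24 to 35 h was -0.24 ± 0.13 (adjusted p = 0.11). At 73 to 120 h it was -0.21 ± 0.13 (adjusted p = 0.19). The second probe changed by 0.89, -0.27 and -0.15 in the 3 windows, and the third and dimmest by 1.15, 0.76 and 0.56, so that the probes shared the early rise and differed afterwards.

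Lat, the adaptor that ZAP-70 phosphorylates, declined after activation. It was at 12.65 and 13.11 in ThMix, 12.87 and 13.21 in Th2, 13.25 and 13.44 in Th1 and 13.12 and 13.51 in Th0 cells at 3 h, against 13.15 and 13.54 in naive cells, and 4 of these 8 arrays lay within the naive range and 4 below it. At 6 h the change of Lat was -0.73 in ThMix, -0.67 in Th2, -0.71 in Th1 and -0.60 in Th0 cells. It passed in ThMix and Th1 (limma, adjusted p = 0.037 and 0.044) and not in Th2 and Th0 cells (adjusted p = 0.056 and 0.095). At 12 h the change was -0.38 in ThMix, -0.99 in Th2, -0.93 in Th1 and -0.57 in Th0 cells. At 73 h Lat was at 12.07 and 11.72 in ThMix, 12.21 and 11.85 in Th2, 12.60 and 12.10 in Th1 and 12.19 and 12.26 in Th0 cells, all below the naive range. The pooled change was -0.53 ± 0.21 at 3 to 12 h (adjusted p = 0.035), -0.87 ± 0.21 at 24 to 35 h (adjusted p = 0.00052) and -1.06 ± 0.21 at 73 to 120 h (adjusted p = 3.8e-05). In the ThMix array of 12 h that stood apart, Lat was 0.88 above the other cultures, against 0.02 in the other experiment, and without the 2 arrays the change at 3 to 12 h was -0.56 ± 0.21 (adjusted p = 0.026). Without naive replicate 2 the first was -0.33 ± 0.29 (adjusted p = 0.43) and the next was -0.68 ± 0.29 (adjusted p = 0.058). Without replicate 1 of Th0, Th1 or Th2, the change at 3 to 12 h did not pass either, with adjusted p of 0.056 to 0.067. The dim second probe of Lat, from another transcript record, changed by 0.13, -0.75 and -0.63 in the 3 windows.

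**Figure D3:**
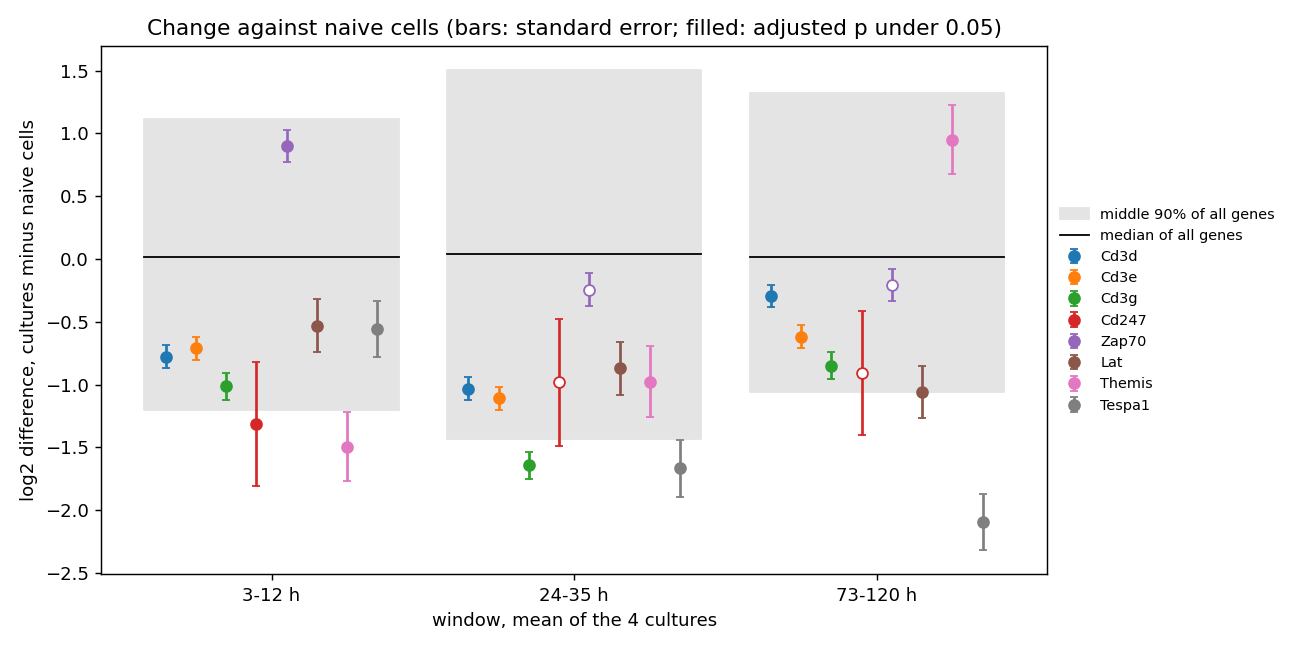
Log2 difference (vertical axis) between the mean of the 4 cultures and naive cells for each gene in 3 windows (horizontal axis), with standard errors, filled where the adjusted p is under 0.05. Grey bands hold the middle 90% of all 13817 genes and black lines are their medians. Themis is at -1.496, -0.98 and 0.95, Tespa1 at -0.56, -1.67 and -2.09, and Zap70 is above 0 in the first window.

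Themis, an adaptor of the proximal machinery, fell early and rose late. At 3 h it was at 7.34 and 8.31 in ThMix, 7.73 and 8.23 in Th2, 7.69 and 8.26 in Th1 and 7.73 and 8.35 in Th0 cells, against 9.57 and 9.65 in naive cells. Every culture was more than 1 log2 unit below the naive arrays at this first time. At 96 h the values were 10.68 and 10.57 in ThMix, 10.45 and 10.25 in Th2, 11.31 and 10.89 in Th1 and 10.71 and 10.11 in Th0 cells, now all above the naive arrays. By culture, this difference passed in ThMix and Th1 cells, at 1.01 and 1.49 (limma, adjusted p = 0.028 and 0.0013). In Th2 and Th0 cells it was 0.74 and 0.80 and did not pass (adjusted p = 0.12 and 0.10). The pooled change was -1.496 ± 0.28 at 3 to 12 h (adjusted p = 1.3e-05) and 0.95 ± 0.28 at 73 to 120 h (adjusted p = 0.0039), and the rise between 24 to 35 h and 73 to 120 h was 1.93 ± 0.12, which is 3.80-fold and larger than that of 98.7% of all genes.

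The late rise of Themis above the naive level depended on the probe. The 2 dimmer probes, from other transcript records, fell by 0.98 and 1.08 at 24 to 35 h and returned to 0.02 and 0.03 above the naive level at 73 to 120 h. Their correlation with the brightest probe was 0.85 and 0.93. The fall and the return were common to all 3 probes, and the level above naive cells was seen with the brightest one. It did not pass without naive replicate 1, with 0.91 ± 0.39 and adjusted p = 0.062.

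Tespa1, the adaptor TESPA1, had the lowest late level relative to naive cells among the members and separated the cultures. The gene has 1 probe, so its values could not be compared with those of another probe. At 3 h Tespa1 was at 12.09 and 12.75 in ThMix, 12.23 and 12.81 in Th2, 12.04 and 12.80 in Th1 and 12.04 and 12.62 in Th0 cells, against 11.90 and 12.21 in naive cells. No fall was present at this time. At 24 h it was at 9.91 and 9.91 in ThMix, 10.27 and 10.33 in Th2, 10.59 and 10.88 in Th1 and 11.04 and 10.86 in Th0 cells. All 8 arrays were now below the naive arrays, and those of ThMix were the lowest. At 73 h it was at 7.81 and 7.63 in ThMix, 9.39 and 9.66 in Th2, 9.70 and 9.26 in Th1 and 11.12 and 10.63 in Th0 cells. The ThMix arrays did not overlap any other culture and the Th0 arrays were the highest. At 120 h the values were 9.29 and 8.88 in ThMix, 10.76 and 10.88 in Th2, 10.81 and 10.30 in Th1 and 11.22 and 11.17 in Th0 cells, so the order of ThMix below the other cultures was kept while the ThMix, Th2 and Th1 arrays lay above their 73 h values.

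The change of Tespa1 pooled over cultures was -0.56 ± 0.23 at 3 to 12 h (adjusted p = 0.042), -1.67 ± 0.23 at 24 to 35 h (adjusted p = 4.0e-08) and -2.09 ± 0.23 at 73 to 120 h, which is 4.27-fold lower (adjusted p = 1.6e-10). The change at 3 to 12 h did not pass without replicate 1 of Th0, Th1, Th2, ThMix or the naive cells or without naive replicate 2, with adjusted p of 0.066 to 0.37. The later ones passed in each of these settings. At 73 h alone the Tespa1 difference was -3.155 ± 0.31 for ThMix minus Th0 (adjusted p = 2.8e-10), -1.76 ± 0.31 for ThMix minus Th1 (adjusted p = 0.00011) and -1.81 ± 0.31 for ThMix minus Th2 (adjusted p = 0.00022). It was the one member called lower in these comparisons, against 3.84%, 2.33% and 0.55% of all genes.

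By the kinetic criterion, an F-test over the 9 times against 0 h and a change of at least 2-fold in 1 direction at 2 consecutive times, 6 of the 8 genes were kinetic in ThMix, 6 in Th2, 5 in Th1 and 7 in Th0 cells, against 28.9%, 28.3%, 27.1% and 26.4% of all genes. Cd3e, Cd3g, Themis and Tespa1 were kinetic in all 4 cultures. Cd3d reached the 2-fold criterion in ThMix and Th2 cells, Zap70 in Th1 and Th0 cells, and Lat in ThMix, Th2 and Th0 cells. The other cultures were close to it. Cd3d changed by -0.97 in Th1 and -0.98 in Th0 cells at 24 h, and Zap70 by 1.15 in Th2 and 0.92 in ThMix cells at 6 h. With all arrays, no member differed between cultures at 6 or 24 h (limma, adjusted p under 0.05). Cd247 was kinetic in Th0 cells, where its F-test had adjusted p = 0.022. Without the 2 arrays that stood apart, 6 genes were kinetic in ThMix, 7 in Th2, 6 in Th1 and 7 in Th0 cells, against 28.7%, 28.4%, 27.2% and 26.7% of all genes, and Cd247 was then kinetic in Th2, Th1 and Th0 cells, with adjusted p = 1.3e-08 in Th0 cells.

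Late differences between the cultures were taken as means over 48 to 120 h, with 8 arrays a culture. The SE treats these arrays as independent although the times of an experiment follow each other. The 8 late Tespa1 arrays ranged from 7.63 over a median of 8.81 to 9.29 in ThMix, from 9.39 over 10.42 to 10.88 in Th2, from 9.26 over 10.24 to 10.81 in Th1 and from 10.63 over 11.08 to 11.22 in Th0 cells. The ThMix arrays were below all Th2 and Th0 arrays and overlapped the lowest Th1 array. The difference was -2.38 ± 0.15 for ThMix minus Th0, which is 5.21-fold lower (adjusted p = 2.0e-16), -1.46 ± 0.15 for ThMix minus Th1 (adjusted p = 5.5e-10) and -1.63 ± 0.15 for ThMix minus Th2 (adjusted p = 1.1e-10). It was lower in ThMix in 8 of 8 pairs of the same time and experiment against each of Th0, Th1 and Th2. Tespa1 was also lower in both other polarized cultures than in Th0 cells in 8 of 8 pairs each, at -0.92 ± 0.15 for Th1 minus Th0 (adjusted p = 3.1e-05) and -0.75 ± 0.15 for Th2 minus Th0 (adjusted p = 0.00016). Th1 and Th2 cells differed by -0.17 ± 0.15 (adjusted p = 0.55).

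**Figure D4:**
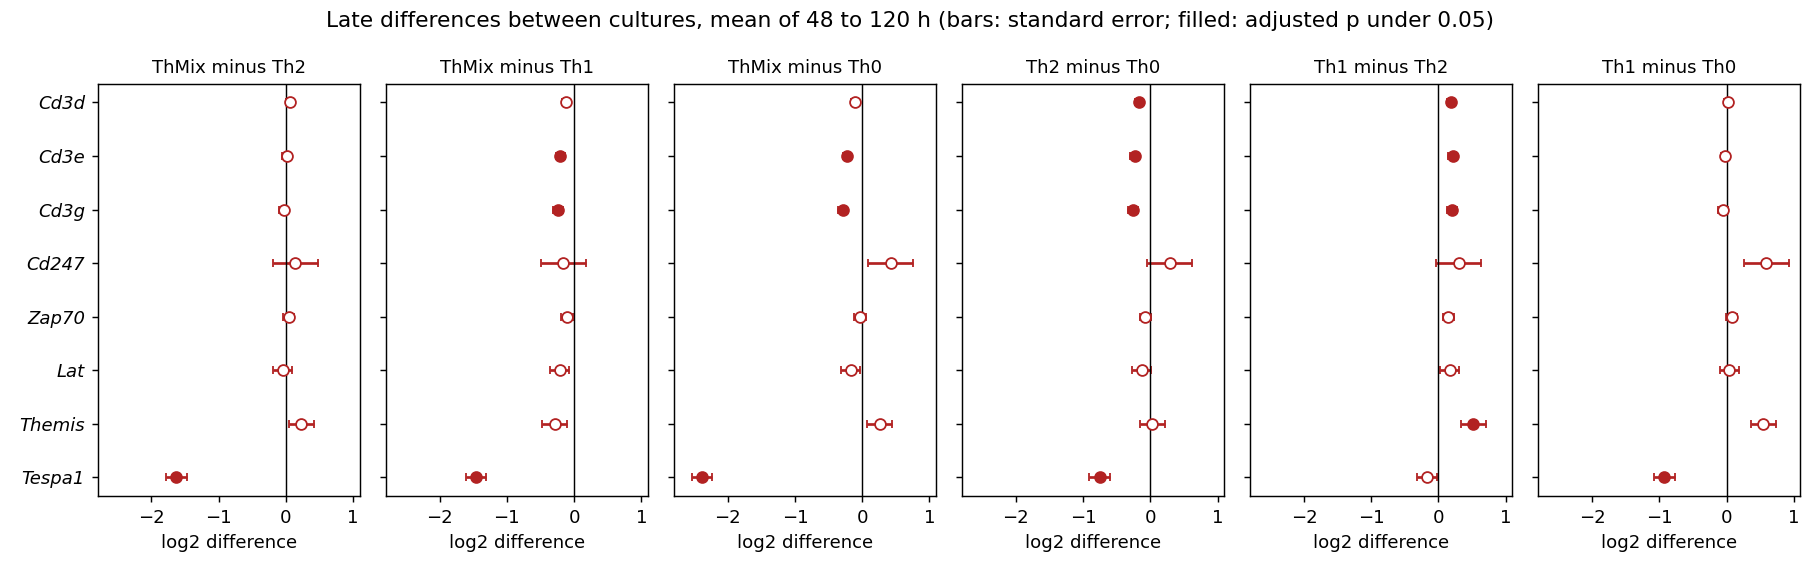
Late differences between cultures (horizontal axes, log2, mean of 48 to 120 h, with standard errors) for the 8 genes (rows) in 6 comparisons, filled where the adjusted p is under 0.05. Tespa1 is at -1.63, -1.46 and -2.38 in the 3 comparisons of ThMix cells, and the CD3 genes lie within 0.30 of 0 in every comparison.

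In the mean of 48 to 120 h, the CD3 genes differed by less than 0.30 between cultures. In Th2 against Th0 cells, 4 of the 8 genes were lower, Cd3d at -0.17 ± 0.06, Cd3e at -0.23 ± 0.06, Cd3g at -0.26 ± 0.07 and Tespa1, against 14% of all genes. In ThMix against Th0 cells, 3 were lower, Cd3e at -0.22 ± 0.06, Cd3g at -0.29 ± 0.07 and Tespa1, against 13.8%. In ThMix against Th1 cells, 3 were lower, Cd3e at -0.20 ± 0.06, Cd3g at -0.24 ± 0.07 and Tespa1, against 8.41%. With its second probe, Cd3e differed by -0.14 ± 0.06 there and did not pass (adjusted p = 0.15). In Th1 against Th2 cells, 4 were higher, Cd3d by 0.18 ± 0.06, Cd3e by 0.21 ± 0.06, Cd3g by 0.21 ± 0.07 and Themis by 0.52 ± 0.19, against 10.5%. Tespa1 was the one member called in Th1 against Th0 cells, where 2.86% of all genes were lower, and in ThMix against Th2 cells, where 2.33% were lower. Comparisons that share a culture share its arrays and are not separate evidence.

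Single late times held larger differences. At 48 h Cd3g was at 13.23 and 13.22 in ThMix, 13.43 and 13.48 in Th2, 13.65 and 13.50 in Th1 and 14.02 and 13.78 in Th0 cells, with no overlap between cultures. ThMix minus Th0 was -0.68 ± 0.15 for Cd3g at this time (adjusted p = 0.0024), where 2.69% of all genes were lower, -0.42 ± 0.15 at 73 h (adjusted p = 0.071) and 0.09 ± 0.15 at 120 h (adjusted p = 0.89). At 120 h Cd3e was at 14.17 and 14.36 in Th1 and 13.73 and 13.97 in Th2 cells, a difference of 0.42 ± 0.13 (adjusted p = 0.031), where 3.26% of all genes were higher. With late taken as 73 to 120 h, Cd3g in ThMix minus Th0 was -0.16 ± 0.09 and did not pass (adjusted p = 0.19). In ThMix minus Th1, that window gave -0.19 ± 0.07 for Cd3e (adjusted p = 0.067) and -0.21 ± 0.09 for Cd3g (adjusted p = 0.11).

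These CD3 differences were seen in most paired arrays, and several calls were lost without 1 experiment. Cd3e was lower in 8 of 8 pairs for Th2 against Th0, ThMix against Th0 and ThMix against Th1 cells, and Cd3d and Cd3g were higher in 8 of 8 pairs for Th1 against Th2 cells. Th1 against Th2 gave 0 to 2 genes without any 1 experiment of Th1 or Th2 cells, in place of 4. Th2 against Th0 gave 2 without Th0 replicate 1, Th0 replicate 2 or Th2 replicate 1, and ThMix against Th1 gave 1 without Th1 replicate 2 or ThMix replicate 2. Without Th0 replicate 1, which leaves the array that stood apart as the lone Th0 array at 96 h, ThMix against Th0 gave 5 and Th1 against Th0 gave 3. Without the 2 arrays, the 6 late comparisons gave 1 gene in Th1 against Th0, 3 in Th2 against Th0, 3 in ThMix against Th0, 5 in Th1 against Th2, 3 in ThMix against Th1 and 1 in ThMix against Th2 cells. With all arrays, the 6 comparisons in that order gave 1, 4, 3, 4, 3 and 1 of the 8 genes in either direction. The shares of all genes were then 5.8%, 25%, 23.9%, 20.4%, 15.7% and 4.13%. Shares for the fits with fewer arrays are not given here. In the fit without the 2 arrays, Cd3d in Th2 against Th0 cells had adjusted p = 0.062. There the brightest probe of Cd247 was 0.30 ± 0.11 higher in Th1 than in Th2 cells (adjusted p = 0.047).

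Themis had its highest late median in Th1 cells. Over 73 to 120 h its 6 arrays ranged from 10.26 over a median of 10.63 to 10.98 in ThMix, from 9.74 over 10.28 to 10.77 in Th2, from 10.48 over 10.94 to 11.32 in Th1 and from 9.94 over 10.47 to 10.89 in Th0 cells. The ranges overlap. Th1 minus Th0 over 48 to 120 h was 0.55 ± 0.19, higher in 8 of 8 pairs, and did not pass (adjusted p = 0.079). With experiments paired within time points as a block, it passed with adjusted p = 3.9e-06, as did ThMix minus Th0 at 0.26 (adjusted p = 0.0098) and ThMix minus Th1 at -0.29 (adjusted p = 0.0065). The second brightest probe gave 0.45 ± 0.11 for Th1 minus Th0 (adjusted p = 0.0074) and 0.16 ± 0.11 for Th1 minus Th2 (adjusted p = 0.38). Without Th1 replicate 1, Th1 replicate 2 or Th2 replicate 2, Th1 minus Th2 did not pass either, with adjusted p of 0.054 to 0.47.

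Cd247, Zap70 and Lat passed in none of the 6 late comparisons with all arrays. Zap70 differed by at most 0.15 ± 0.09, in Th1 minus Th2 cells (adjusted p = 0.27), which passed with the block within time points (adjusted p = 0.013). The largest difference of Lat was -0.21 ± 0.14, for ThMix minus Th1 (adjusted p = 0.40).

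The change from 24 to 35 h to 73 to 120 h was set against each other in Th1 and Th2 cells. Of the 8 genes, 0 differed at adjusted p under 0.05 in limma and 1 at unadjusted p under 0.05, against 7.27% of all genes called in either direction. Tespa1 changed by -0.64 in Th1 and 0.06 in Th2 cells, a difference of -0.71 ± 0.28 (adjusted p = 0.14), and Themis by 2.18 in Th1 and 1.503 in Th2 cells, a difference of 0.67 ± 0.34 (adjusted p = 0.30). With the block within time points, both passed (adjusted p = 0.00088 for Tespa1 and 0.0010 for Themis). Without Th1 replicate 1, Tespa1 passed with -1.14 and adjusted p = 0.034. Cd247 changed by 0.62 in Th1 and -0.16 in Th2 cells, a difference of 0.78 ± 0.61 (adjusted p = 0.58), which without the 2 arrays was 0.78 ± 0.20 with adjusted p = 0.0090. Neither array left out is of Th1 or Th2 cells, so the estimate stayed and only its SE became smaller. It rests on the brightest probe of Cd247, and no value of its other probes is given for this difference.

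Other genes of the pathway were read from lists of surface partners, downstream kinases and adaptors, and inhibitors. At 24 to 35 h against naive cells, none of the 8 surface partners measured of 13 listed was higher and 5 were lower. They include Trat1, a transmembrane adaptor of the receptor, at -1.53 ± 0.22, the coreceptor gene Cd4 at -0.90 ± 0.20, Cd2 at -0.87 ± 0.14 and Ptprcap at -0.55 ± 0.20. Of 14 downstream kinases and adaptors measured of 16 listed, 1 was higher and 9 were lower. The largest changes were those of the adaptor Fyb at -2.43 ± 0.20, Rasgrp1, which activates Ras, at -2.11 ± 0.09, the adaptor Skap1 at -1.95 ± 0.14 and the kinase Prkcq at -1.75 ± 0.16. The gene that rose was Lcp2, which encodes the adaptor SLP-76, at 1.02 ± 0.28, and it is named outside the rule for list genes, after its value was seen. Of 16 inhibitors, 2 were higher and 9 were lower, led by Dgka, a kinase that removes diacylglycerol, at -3.43 ± 0.18, Sit1 at -2.83 ± 0.20, Dok2 at -2.05 ± 0.16 and Dgkz at -1.48 ± 0.12. The medians of the 3 lists were -0.40, -0.66 and -0.83, against 0.04 for all genes, with 24.8% of all genes called lower.

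At late times 8 of the 16 inhibitors were lower and 1 was higher in the comparison of Th2 with Th0 cells, and 8 were lower and none higher in ThMix than in Th0 cells, with list medians of -0.19 and -0.18 against -0.01 for all genes in both. Of all genes, 14% were lower and 11.1% higher in Th2 against Th0 cells, and 13.8% were lower and 10.1% higher in ThMix against Th0 cells. Among downstream kinases and adaptors, 1 was lower and 2 were higher in Th2 against Th0 cells, and 1 was lower in ThMix than in Th0 cells. Of the 8 surface partners measured, 1 was higher and 2 were lower in Th2 against Th0 cells, with a list median of -0.15. In ThMix against Th0 cells, none of them was higher and 4 were lower, with a list median of -0.23. The Trat1 difference was 1.37 ± 0.15 for Th2 minus Th0 and -0.44 ± 0.15 for ThMix minus Th0. These lists were chosen with earlier results of the data known, and their counts are descriptions.

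Over the 37 condition means, the genes whose courses were most like those of the members were Cdk19 for Cd3d (r = 0.94), Cd3g for Cd3e (r = 0.94), Rnpepl1 for Cd3g after Cd3e (r = 0.93), Lrp6 for Zap70 (r = 0.95), Ptk2b for Lat (r = 0.88), Grn for Themis (r = 0.96) and Phc2 for Tespa1 (r = 0.87). For Cd247 it was Diaph1 (r = 0.85). Without the 2 arrays it was Fli1 for Cd247 (r = 0.83), Ptpn12 for Lat (r = 0.89) and Susd6 for Tespa1 (r = 0.87), and Diaph1, Ptk2b and Phc2 were then not among the first 3. Among the members themselves, Lat and Tespa1 correlated with r = 0.77, and with 0.63 without ThMix replicate 2. Zap70 and Themis correlated with r = -0.64, with -0.53 for the mean of all probes and with -0.24 for the second brightest probes.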

How the data were processed

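RNA of 74 samples was measured on Illumina Mouse Sentrix-6 arrays. The deposited table holds 1 normalized intensity per probe and array on a linear scale, between 55.8 and 69892, made by the authors with quantile normalization, and log2 of these values was used without further scaling. Of 45135 probes, 34773 carried 1 gene symbol in the platform annotation. Probes were kept where any condition mean exceeded the overall median of the table, 6.77 in log2 units, and the brightest probe stood for a gene.

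A model with 1 mean for each of the 37 conditions was fitted over 13817 genes with limma 3.58.1 in R 4.3.3 (37 residual degrees of freedom), with Benjamini-Hochberg adjustment over all genes at 0.05. Errors after ± are standard errors of this model. The regression software named in the study's methods was not used here. The script was tested on simulated data. Figures were drawn with matplotlib 3.10.9 in Python 3.11.15.

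The replicate number marks 2 independent experiments. Deviations from the condition means correlated with a median r of 0.54 over 54 pairs of cultures of the same time and 0.09 over 612 pairs of different times, so the number paired samples. Each condition has 2 arrays, which limits the precision. Alternatives were other probes, normalizations, filters, variance settings, windows, a replicate block, leaving out each replicate and leaving out 2 arrays. A block within each time point, for comparisons between cultures, was added after seeing the data. The named genes were the 9 members, up to 4 genes of each pathway list with the largest change among those past the threshold at 24 to 35 h, and the genes most like each member. Members and lists were chosen with earlier results of these data known.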

Additional observations from a re-analysis of the deposited data

How the results depend on the processing

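Counts of members called stayed within 1.5 times of the reported ones in 265 of 287 alternative values. Quantile normalization, normexp background correction and other variance settings changed none of 80 member results each. The authors had already applied background correction and quantile normalization to the deposited values, so repeating these steps could change little. The experiment as a block, a shared offset for all times, changed none of 80 either, with 4 genes in Th2 against Th0 cells as without it. That block does not pair the arrays within a time. The block within each time point was added after seeing the data. It was used only between cultures because naive cells and different times cannot be paired by it. It made 5 more calls among 48 and lost none. With it, the count was 2 in Th1 against Th0 cells, 5 in ThMix against Th1 cells and 2 for the change in Th1 against that in Th2 cells. That last count was 1 without the 2 arrays that stood apart. Th1 against Th0 cells gave 2 genes with the mean of all probes and 2 with the second brightest probe, and Th1 against Th2 cells gave 2 with no filter. With late taken as 73 to 120 h, Th2 against Th0 gave 2 and ThMix against Th1 gave 1. Lat at 3 to 12 h was 0.13 above naive cells with the second brightest probe (adjusted p = 0.72). The cause of these shifts was not tested, and the shares of all genes called in these settings are not given here.

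Leaving out 1 replicate of a group at a time gave 1 to 3 genes in Th1 against Th0, 2 to 4 in Th2 against Th0, 2 to 5 in ThMix against Th0, 0 to 4 in Th1 against Th2, 1 to 3 in ThMix against Th1 and 0 to 1 for the change in Th1 against that in Th2 cells. Against naive cells it gave 5 to 8 at 3 to 12 h, the lowest without naive replicate 2, 5 to 7 at 24 to 35 h and 4 to 7 at 73 to 120 h. In these fits the lone arrays are assumed to vary like the other conditions, and the shares of all genes called are not given here. Tespa1 has 1 probe, so the settings with other probes could not change its differences. Leaving out arrays of other cultures or of naive cells could not change its ThMix minus Th0 difference either. Tespa1 in ThMix against Th0 cells lay between -2.62 and -2.27 in the 20 alternatives run and passed in all 20.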
